A study of Mus musculus with 4 samples.

Results

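Gastrocnemius muscle of *ob/ob* mice was compared with and without the glucocorticoid receptor (GR) in myofibers. The comparison set the library labelled ob/ob GR-mKO against the library labelled ob/ob GR fl/fl, 2 of the 4 libraries of the series, and covered the 12768 of 22252 gene names that had at least 10 counts in both. Each library was made from the pooled RNA of 3 male C57BL/6J mice at 7 weeks of age. The *ob/ob* mice carry a loss-of-function mutation of leptin and become obese through overeating. All 4 groups carry floxed alleles of *Nr3c1*, the gene of GR, with loxP sites around exon 3, which encodes part of the DNA-binding domain. In GR-mKO mice, exon 3 is removed by a Cre recombinase under the *Acta1* promoter, which is active in myofibers from development onward, so the other cells of the muscle keep GR. The other pair of libraries, from lean GR fl/fl and lean GR-mKO mice, shares no library with the *ob/ob* pair, and its values are given beside those of the *ob/ob* mice.

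GR is a ligand-activated transcription factor. When bound by corticosterone, it leaves its HSP90 chaperone complex, enters the nucleus, and binds to DNA as a dimer, where it induces some genes and represses others. In muscle, glucocorticoids are known to raise genes of protein breakdown and amino acid release, to lower glucose uptake, and to shift fuel use toward fatty acids.

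The *ob/ob* GR fl/fl library held 20959781 and the *ob/ob* GR-mKO library 20949729 expected counts. The 50 most abundant genes took between 45.3% and 48.3% of the counts of the 4 libraries. Levels are given as CPM, the counts of a gene scaled to a library total of 1000000 counts. With 1 library per group, the spread between mice is unknown, no significance test was made, and no *P* value is given. A gene was called higher or lower in GR-mKO mice when its CPM differed by a factor of 2 or more and 1 of the libraries held at least 50 counts of it. The interval beside a log2 fold change is a 95% exact binomial interval that covers counting error only. Each gene name in the files carries 1 transcript ID. The study's methods name both a summary to genes and a step that kept 1 entry of each duplicated gene name, and whether a value covers all transcripts of its gene was not settled from them. Of 7802 genes with several annotated protein-coding transcripts and at least 100 counts in 1 *ob/ob* library, 50 (0.641%) were listed at 0 in the other, against 0 of 2177 genes with 1 such transcript. In the lean pair, the same was found for 58 of 8081 genes (0.718%) with several transcripts and 5 of 2255 (0.222%) with 1 transcript. A change in transcript use can therefore not be told apart from a change in the expression of a gene with several transcripts. All 8 myofiber markers were present at high levels in both *ob/ob* libraries, for example 12963 and 11811 CPM of *Ckm*, the muscle creatine kinase.

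*Nr3c1* (ENSMUSG00000024431.15) spans chromosome 18 of GRCm38 from 39410545 to 39519421. Its level was 102 CPM in ob/ob GR fl/fl and 39.1 CPM in ob/ob GR-mKO mice, against 125 CPM in lean GR fl/fl and 67.0 CPM in lean GR-mKO mice. Both GR-mKO libraries thus lay below both GR fl/fl libraries, and the lowest level was in *ob/ob* GR-mKO mice. The log2 fold change was -1.38 in *ob/ob* (95% counting interval, -1.50 to -1.26) and -0.90 in lean mice. The count covers the whole transcript and not exon 3 alone, so it does not measure the deletion itself, and the cells that keep GR contribute to what remains. In bulk muscle, fewer cells of a type and less RNA per cell cannot be told apart. *Nr3c2* encodes the mineralocorticoid receptor, which also binds corticosterone. Per kilobase of transcript, *Nr3c1* was at 16.1 CPM in *ob/ob* GR fl/fl and 6.18 CPM in *ob/ob* GR-mKO mice, and *Nr3c2* at 1.90 and 1.91 CPM. Values per kilobase, here and below, use the length of the 1 listed transcript. *Nr3c1* has 9 and *Nr3c2* 7 annotated protein-coding transcripts, and which of them a value covers was not settled, so these levels are approximate.

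The chaperones and cofactors of GR differed little. Of 25 measured members of a list of the 2 receptors and their partners, 2 were called lower, *Nr3c1* and *Fkbp5*, and 0 were called higher. The HSP90 genes *Hsp90aa1* and *Hsp90ab1* had log2 fold changes of -0.19 and 0.26. The coactivators *Ncoa1*, *Ncoa2*, and *Ncoa3* were at 0.19, 0.32, and -0.13. *Hsd11b1*, whose enzyme regenerates active glucocorticoid inside cells, was at 9.29 CPM in ob/ob GR fl/fl and 5.16 CPM in ob/ob GR-mKO mice, a log2 fold change of -0.85 (-1.2 to -0.51) that did not reach the 2-fold call. In lean mice it was at 15.7 and 16.6 CPM. *Ppid*, a chaperone partner of steroid receptors, had the highest log2 fold change of the list, 0.41.

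Across all 12768 genes, 190 (1.49%) met the call as higher and 263 (2.06%) lower in GR-mKO mice of the *ob/ob* background. The counting interval excluded no change for all 453 of them. The call rule of a 2-fold difference with at least 50 counts fixes this at these depths, so it adds no support. The middle 50% of all log2 fold changes lay between -0.27 and 0.16, with a median of -0.040. A lower level was found for 7164 genes (56.1%), and the counting interval lay below no change for 26.4% and above it for 18.4% of all genes. These shares are the background against which the counts of the gene lists below are to be read. A 4-fold difference was reached by 31 genes in each direction. Most called genes were of low abundance, and 9 of those called higher and 15 of those called lower exceeded 100 CPM in 1 of the libraries. By comparison, 195 of 13015 genes (1.5%) were called higher and 163 (1.25%) lower in lean GR-mKO mice.

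**Figure D1:**
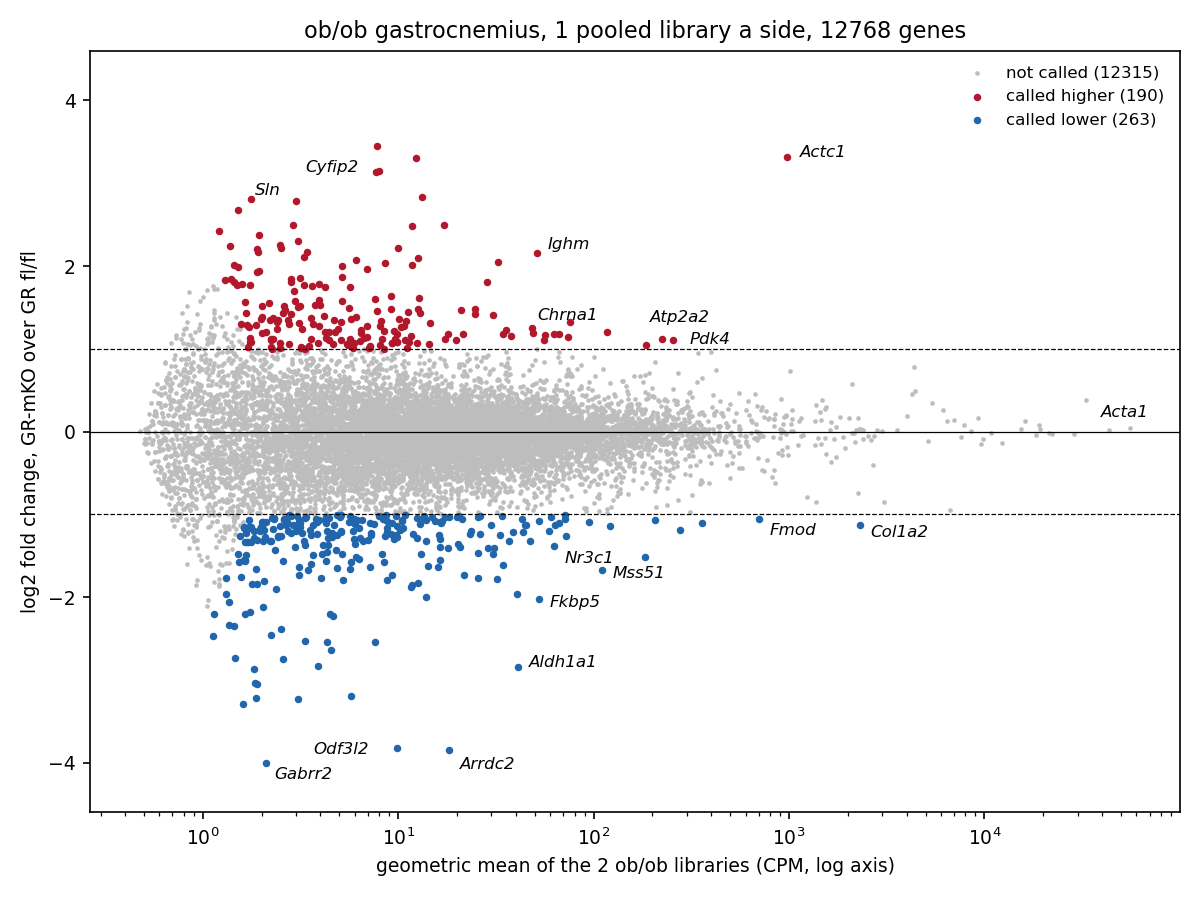
Each point is 1 of 12768 genes, with the geometric mean of its level in the *ob/ob* libraries (CPM, log axis) against the log2 fold change of GR-mKO over GR fl/fl mice. The 190 genes called higher are red, the 263 called lower are blue, and dashed lines mark 2-fold; *Actc1* stands alone above 3 on the log2 scale among genes over 100 CPM.

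Most genes known to be induced by glucocorticoids had a lower level in the *ob/ob* GR-mKO library, but unequally. Of 36 genes on a list of such targets, all measured, 31 had a lower level, 5 were called lower, and 1 was called higher, with a median log2 fold change of -0.27. Of all genes, 56.1% had a lower level, 2.06% were called lower, and 1.49% higher. In lean mice, 29 of the 36 had a lower level, 10 were called lower, and 0 higher, with a median of -0.45. Of all genes in lean mice, 1.25% were called lower and 1.5% higher, and 41.8% of those compared in both backgrounds had a lower level. The strongest difference was in *Arrdc2*, an alpha-arrestin that links membrane proteins to ubiquitin ligases. Its level was 69.3 CPM in ob/ob GR fl/fl and 4.81 CPM in ob/ob GR-mKO mice, against 142 CPM in lean GR fl/fl and 10.03 CPM in lean GR-mKO mice. The 2 GR-mKO libraries were far below both controls, with log2 fold changes of -3.85 (-4.15 to -3.55) in *ob/ob* and -3.83 (-4.04 to -3.62) in lean mice. *Arrdc2* (ENSMUSG00000002910.11) lies on chromosome 8 of GRCm38 from 70835129 to 70839720. The other alpha-arrestins were near their controls, and the 4 that were measured ranged from -0.27 (*Arrdc4*) to 0.36 (*Arrdc1*).

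*Fkbp5* encodes a co-chaperone that lowers the hormone affinity of GR and is among its best known targets. It was at 106 CPM in ob/ob GR fl/fl and 26.1 CPM in ob/ob GR-mKO mice, against 88.8 CPM in lean GR fl/fl and 22.8 CPM in lean GR-mKO mice. The log2 fold changes of -2.02 in *ob/ob* and -1.96 in lean mice were close to each other. *Gadd45g*, a stress-response gene, went from 27.9 to 9.52 CPM in *ob/ob* and from 110.3 to 22.3 CPM in lean mice, log2 fold changes of -1.55 and -2.30. *Rasd1*, a dexamethasone-induced Ras protein, and *Hif3a*, a hypoxia-inducible factor subunit, completed the 5 that were called lower. Their log2 fold changes were -1.29 (-1.75 to -0.84) and -1.15 (-1.84 to -0.48), at levels below 7 CPM.

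Below the 2-fold call, a second tier of targets was lower with intervals that excluded no change. *Glul*, glutamine synthetase, was at 325 and 176 CPM (log2 fold change, -0.89). *Lpin1*, a phosphatidate phosphatase, had a log2 fold change of -0.82, the transcription factor *Foxo1* of -0.83, *Pik3r1*, the regulatory subunit of PI3K, of -0.84, and the clock gene *Per1* of -0.68. The transcription factors *Cebpb* and *Zbtb16* were at -0.66 and -0.62. In all, 23 of the 36 intervals lay below no change and 5 above it.

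Several textbook targets were at nearly the same level in both *ob/ob* libraries. *Tsc22d3*, which encodes the anti-inflammatory protein GILZ, was at 234 CPM in ob/ob GR fl/fl and 210.4 CPM in ob/ob GR-mKO mice, against 441 CPM in lean GR fl/fl and 226 CPM in lean GR-mKO mice. The lean GR fl/fl library thus stood above the other 3. *Ddit4*, a brake on mTORC1, had the same arrangement, with 26.0 and 23.9 CPM in *ob/ob* and 93.1 and 37.1 CPM in lean mice. *Sgk1*, a kinase of the AKT family, was at 187 and 179 CPM in *ob/ob* and 318 and 216 CPM in lean mice. The log2 fold changes in *ob/ob* mice were -0.15, -0.12, and -0.065, and those in lean mice -0.96, -1.33, and -0.56. *Klf15* and *Foxo3* were at -0.17 and -0.23 in *ob/ob* mice. Whether the effect of GR loss differed between *ob/ob* and lean mice cannot be tested with 1 library per group.

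*Pdk4* was the exception among these targets. Its product, pyruvate dehydrogenase kinase, restrains glucose oxidation. It was at 173 CPM in ob/ob GR fl/fl and 372 CPM in ob/ob GR-mKO mice, against 402 CPM in lean GR fl/fl and 349 CPM in lean GR-mKO mice. The *ob/ob* GR fl/fl library was the lowest of the 4, and the log2 fold change was 1.10 (1.05 to 1.16) in *ob/ob* against -0.20 in lean mice. *Cdkn1a*, an inhibitor of the cell cycle, also had a higher level (log2 fold change, 0.46), and *Tgm2*, *Mt2*, and *Errfi1* ranged from 0.14 to 0.33. Of 13 measured genes on a list of glucocorticoid-repressed genes, 0 were called in either direction, and their median was -0.088. In lean mice, 10 of 14 measured had a higher level, 2 were called higher and 0 lower, and the median was 0.14. Of all genes in lean mice, 1.5% were called higher and 1.25% lower.

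**Figure D2:**
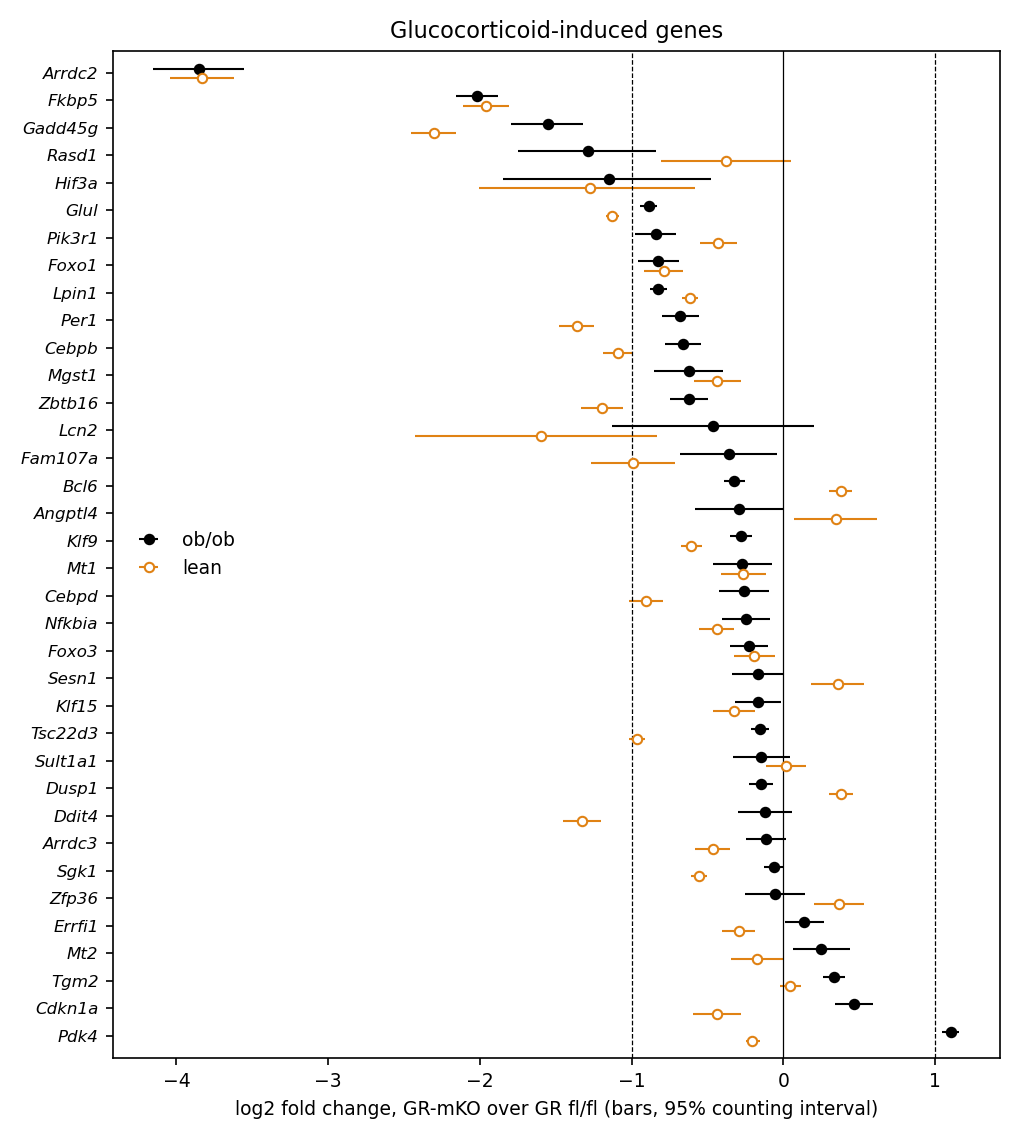
Log2 fold change of GR-mKO over GR fl/fl mice for the 36 glucocorticoid-induced genes, with filled circles for *ob/ob* and open circles for lean mice; bars are 95% counting intervals and dashed lines mark 2-fold. In *ob/ob* mice, 5 genes lie beyond the lower and 1 (*Pdk4*) beyond the upper line.

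GR dimers bind palindromes of the half-sites AGAACA and TGTTCT with 3 bases between them. Promoter windows from RefSeq (GRCm38.p6), from 250 bases before to 50 after a transcription start, were searched for this element with at most 2 mismatches in its 12 fixed bases. The element reads the same on both strands. It was found for 133 of 10083 measured genes with a window (1.32%), for 7 of 205 genes called lower (3.41%), for 2 of 153 called higher (1.31%), and for 3 of 31 glucocorticoid-induced genes (9.68%). A gene was counted when any of its windows held a match, and more windows per gene raise such a share. The 10083 genes had 12863 windows, the 205 called lower 266, the 153 called higher 216, and the 31 glucocorticoid-induced genes 49. Of all windows in the table, counted singly, 1.84% held a match. A match is a description of the sequence and not evidence of binding. The windows of *Arrdc2* and *Fkbp5* held no match, which says only that these letters were absent there. The bases before the start are shown for 2 genes, 5′ to 3′, with the match in capitals. *Sgk1* is shown because a window of it held the element without a mismatch although its level in the 2 *ob/ob* libraries was close (chr10:21993640-21993889, plus strand). *Car14*, a membrane-bound carbonic anhydrase, is shown because it was called lower, at 47.4 and 13.9 CPM with a log2 fold change of -1.77, and held the match with the fewest mismatches among called genes, 1 (chr3:95904686-95904935, minus strand).
Sgk1: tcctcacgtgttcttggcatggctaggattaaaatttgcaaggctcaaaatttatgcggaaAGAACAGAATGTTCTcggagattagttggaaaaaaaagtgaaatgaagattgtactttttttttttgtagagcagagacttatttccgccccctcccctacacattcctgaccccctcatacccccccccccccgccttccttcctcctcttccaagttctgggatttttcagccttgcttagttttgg
Car14: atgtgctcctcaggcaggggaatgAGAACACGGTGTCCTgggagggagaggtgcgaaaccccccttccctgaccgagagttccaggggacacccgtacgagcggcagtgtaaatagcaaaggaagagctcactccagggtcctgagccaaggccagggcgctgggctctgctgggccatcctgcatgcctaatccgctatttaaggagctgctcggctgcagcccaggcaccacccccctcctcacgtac

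Most of the largest differences downward were in genes outside the target list. Besides *Arrdc2*, the 15 genes with the lowest log2 fold changes included *Gabrr2* (-4.0), a GABA receptor subunit, *Odf3l2* (-3.82), *Ackr2* (-3.29), a scavenging chemokine receptor, and *Prima1* (-2.86), the membrane anchor of acetylcholinesterase. *Odf3l2* was at 37.1 CPM in ob/ob GR fl/fl and 2.63 CPM in ob/ob GR-mKO mice, against 39.2 CPM in lean GR fl/fl and 1.91 CPM in lean GR-mKO mice. As for *Arrdc2*, both GR-mKO libraries were more than 10-fold below their controls. *Gabrr2* was at 8.40 CPM in ob/ob GR fl/fl and 0.525 CPM in ob/ob GR-mKO mice, against 1.25 CPM in lean GR fl/fl and 0.955 CPM in lean GR-mKO mice, so that the *ob/ob* GR fl/fl library alone was high. *Aldh1a1*, an enzyme that makes retinoic acid, was the most abundant of the 15 in *ob/ob* GR fl/fl mice. It was at 110.5 CPM in ob/ob GR fl/fl and 15.3 CPM in ob/ob GR-mKO mice, against 67.6 CPM in lean GR fl/fl and 31.6 CPM in lean GR-mKO mice. The log2 fold changes were -2.85 (-3.02 to -2.68) in *ob/ob* and -1.10 in lean mice, and 13.9% of the 31-base words of its transcript recur in *Aldh1a7*. Others of the 15 were *Cldn15*, *Ift80*, *Wdr81*, *Relch*, *Rbmx*, *Dnm3*, *Cpt1c*, and *Gbp6*, at log2 fold changes between -3.23 and -2.64. *Gbp6* shares 95.1% of its transcript words with other genes and is uncertain. *Gabrr2*, *Ackr2*, and *Cpt1c* had 11.0, 10.7, and 11.9 counts in *ob/ob* GR-mKO mice, close to the minimum of 10. Their intervals were wide, at -5.03 to -3.12, -4.30 to -2.36, and -3.75 to -1.85, so their rank is uncertain.

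Among abundant genes that were called lower, several serve muscle metabolism. *Mss51*, a mitochondrial protein of fast muscle, was at 198 CPM in ob/ob GR fl/fl and 62.1 CPM in ob/ob GR-mKO mice, against 63.8 CPM in lean GR fl/fl and 16.7 CPM in lean GR-mKO mice. It was lower in GR-mKO mice of both backgrounds (log2 fold changes, -1.67 and -1.94) and higher in *ob/ob* than in lean mice of either genotype. *Slc16a3*, the lactate exporter MCT4, went from 416 to 183 CPM in *ob/ob* and from 338 to 213 CPM in lean mice. *Ppp1r3c*, the glycogen-targeting subunit of protein phosphatase 1, went from 526 to 245 CPM and from 466 to 132 CPM. *Angptl7*, a secreted angiopoietin-like protein, went from 311 to 109 CPM and from 146 to 72.6 CPM, and *Ttll7*, a tubulin polyglutamylase, from 180.2 to 82.0 CPM and from 135 to 69.8 CPM. All 5 were lower in the GR-mKO library of both backgrounds. *Tmem52* (-1.97), *Kcng4* (-1.77), a potassium channel subunit, and *Hmga2* (-2.22), a chromatin protein, were also called lower; *Tmem52* and *Hmga2* were called lower in lean mice as well.

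**Figure D3:**
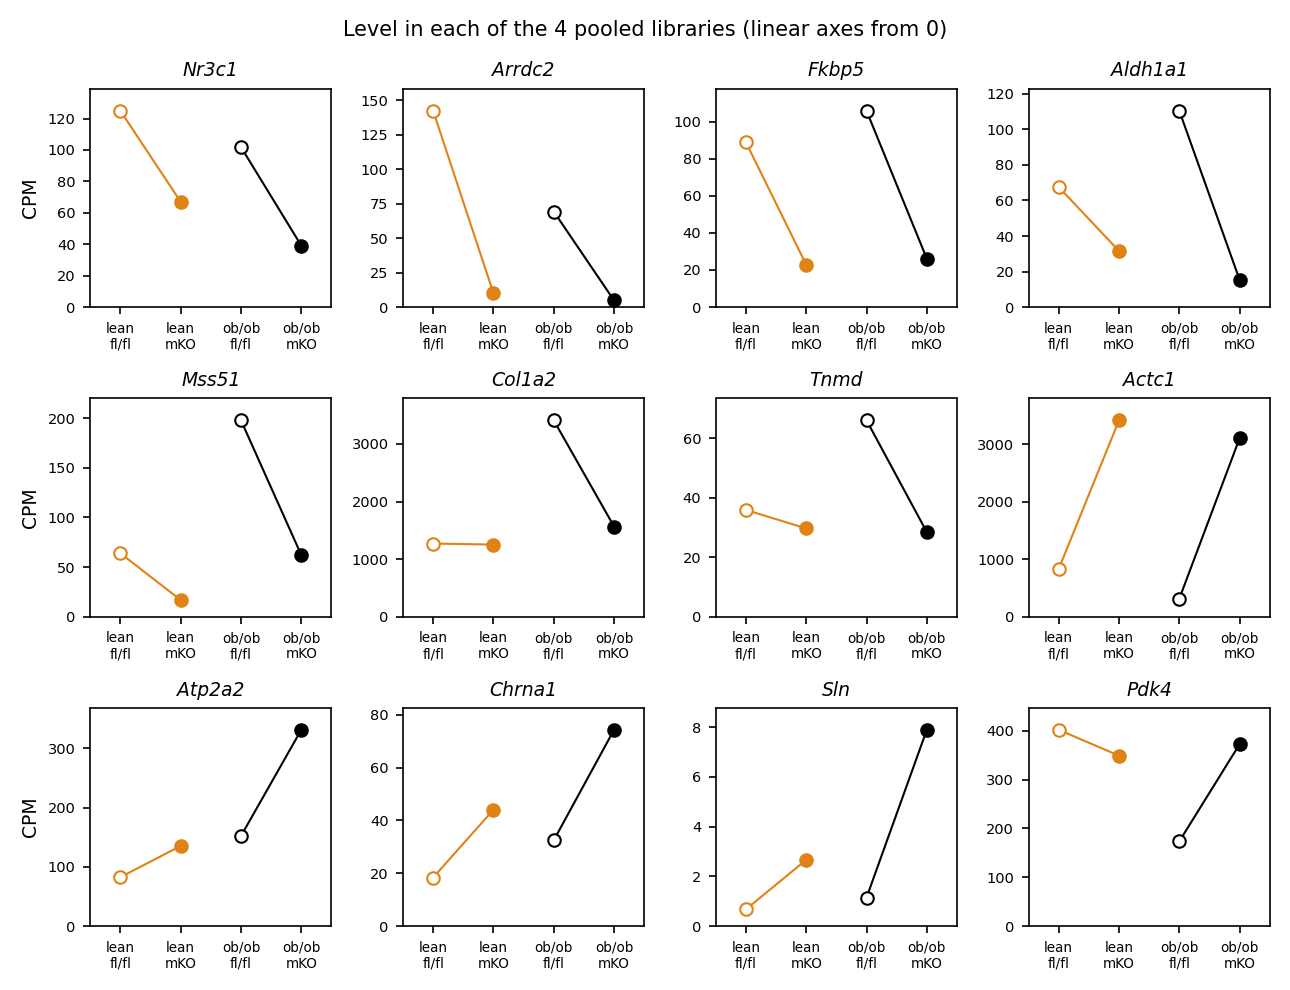
Level (CPM, linear axes from 0) of 12 genes in each of the 4 pooled libraries, with open circles for GR fl/fl and filled circles for GR-mKO mice, orange for lean and black for *ob/ob* mice; each circle is 1 library and has no error bar. *Nr3c1*, *Arrdc2*, *Fkbp5*, *Aldh1a1*, and *Mss51* are lower and *Actc1*, *Atp2a2*, *Chrna1*, and *Sln* higher with GR-mKO in both backgrounds, whereas *Pdk4* is higher in *ob/ob* mice only.

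The genes of muscle protein breakdown were not called. Of 23 ubiquitin ligase genes linked to atrophy, 0 were called, and the median was -0.0061. *Trim63*, which encodes MuRF1, was at 183 CPM in ob/ob GR fl/fl and 161 CPM in ob/ob GR-mKO mice. *Fbxo32*, which encodes Atrogin1, was at 144 CPM in ob/ob GR fl/fl and 232 CPM in ob/ob GR-mKO mice, so that the 2 best known ligases differed in opposite directions, with log2 fold changes of -0.19 (-0.26 to -0.12) and 0.69 (0.62 to 0.75). In lean mice, *Fbxo32* was at 214 and 214 CPM. *Fbxo31* and *Asb5* were the lowest of the list, at -0.48 and -0.47. The 28 FoxO, autophagy, and lysosome genes had a median of -0.016 with 0 called, and *Foxo6* (0.75) and *Foxo1* (-0.83) at the ends of the range. Of 32 proteasome subunits, 25 had a higher level, but the differences were small, with a median of 0.10 and a maximum of 0.27 (*Psmb1*). Among 18 brakes on mTORC1, 0 were called, and *Ddit4l* came closest, at 246 and 475 CPM (log2 fold change, 0.95).

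Glucose and insulin genes differed singly. Of 29 measured genes of insulin signaling and glucose uptake, 1 was called lower, *Slc2a3*, the glucose transporter GLUT3. It was at 5.77 CPM in ob/ob GR fl/fl and 1.11 CPM in ob/ob GR-mKO mice, against 7.62 CPM in lean GR fl/fl and 2.13 CPM in lean GR-mKO mice. Both GR-mKO libraries were the lower of their pair, with log2 fold changes of -2.38 and -1.84. In *ob/ob* mice, *Irs1*, an insulin receptor substrate, was at 41.6 and 74.7 CPM (0.85), and *Tbc1d4*, which controls GLUT4 traffic, at 10.7 and 19.4 CPM (0.86), whereas *Pik3r1* was at -0.84. Of 29 glycolysis and glycogen genes, *Ppp1r3c* was called lower and 0 were called higher. *Aldoa*, aldolase of muscle, fell short of a call, going from 9207 to 4775 CPM (log2 fold change, -0.95) in *ob/ob* and from 8916 to 6066 CPM in lean mice. The summed level of the 29 genes went from 50253.3 to 43823 CPM in *ob/ob* mice.

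Genes of fatty acid use did not move together. Of 38 genes of fatty acid uptake, storage, and oxidation, *Pdk4* was called higher and *Plin5*, a lipid droplet protein, lower, and the median was -0.025. *Plin5* was at 15.4 CPM in ob/ob GR fl/fl and 7.69 CPM in ob/ob GR-mKO mice. Its log2 fold change was -1.0 in CPM, and it was no longer called under any of 4 other scalings. *Ucp3*, an uncoupling protein, was at 57.0 CPM in ob/ob GR fl/fl and 96.0 CPM in ob/ob GR-mKO mice (0.75), and *Dgat2*, an enzyme of triglyceride synthesis, at 155 and 98.1 CPM (-0.66). Of 17 lipogenic genes, 0 were called; *Pnpla3* was the lowest at -0.96 and *Gpam* the highest at 0.67. Adipocyte markers were lower in the GR-mKO library of both backgrounds. Of 8 measured markers, 7 had a lower level in *ob/ob* GR-mKO mice and 1, *Cidec*, was called, at 50.7 and 18.3 CPM. The summed level of 10 markers, among them *Adipoq* (-0.86), *Plin1* (-0.81), and *Lep* (-0.73), went from 574 to 357 CPM in *ob/ob* and from 1000.3 to 646 CPM in lean mice. *Ucp1* was listed at 0 in *ob/ob* GR-mKO mice, and *Cidea* alone was higher. Their part in the lipid genes was not tested.

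Amino acid genes as a group were close to all genes, and single members were lower. Of 27 measured genes of amino acid catabolism and of alanine and glutamine synthesis, 17 had a lower level, against 56.1% of all genes. Of the 27, 1 was called lower and 0 higher, and the median was -0.017. *Gpt*, alanine aminotransferase, was at 22.5 CPM in ob/ob GR fl/fl and 10.7 CPM in ob/ob GR-mKO mice, against 15.9 CPM in lean GR fl/fl and 11.6 CPM in lean GR-mKO mice. Its log2 fold change was -1.07 (-1.31 to -0.85) in *ob/ob* mice. *Gpt2*, the mitochondrial form, went from 261 to 170.2 CPM (-0.62), *Oat*, ornithine aminotransferase, from 167 to 94.4 CPM (-0.82), and *Cdo1*, cysteine dioxygenase, from 31.1 to 18.6 CPM (-0.74), and all 3 were lower in lean GR-mKO mice, too. Of 19 measured amino acid transporters, 0 were called and 14 had a lower level. The sodium-coupled transporters *Slc38a4* and *Slc1a5* were at -0.81 and -0.76, the cationic amino acid transporter *Slc7a2* at -0.71, and *Slc43a2* at 0.90. In polyamine metabolism, *Amd1*, which supplies the aminopropyl groups of spermidine and spermine, was at 414 CPM in ob/ob GR fl/fl and 243 CPM in ob/ob GR-mKO mice, against 2047 CPM in lean GR fl/fl and 934 CPM in lean GR-mKO mice. It shares 91.3% of its transcript words with *Amd2* and is uncertain. Its lean GR fl/fl library stood above the rest. *Smox*, spermine oxidase, was at 101 and 50.6 CPM in *ob/ob* mice, and its log2 fold change of -1.0 was called in CPM only, and *Sat2* was called higher at under 3 CPM.

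*Actc1*, the cardiac form of alpha-actin that skeletal muscle expresses before birth, was the largest difference among abundant genes. Its level was 310.3 CPM in ob/ob GR fl/fl and 3100.3 CPM in ob/ob GR-mKO mice, against 827 CPM in lean GR fl/fl and 3413 CPM in lean GR-mKO mice. Both GR-mKO libraries stood above both controls, and the *ob/ob* GR fl/fl library was the lowest of the 4. The log2 fold change was 3.32 (3.28 to 3.36), or 9.99-fold, in *ob/ob* and 2.04 (2.02 to 2.07) in lean mice. *Actc1* (ENSMUSG00000068614.7) lies on chromosome 2 of GRCm38 from 114047282 to 114053548. Of its 31-base words, 0.832% recur in other genes. Per kilobase of transcript, *Actc1* was at 211 and 2105 CPM and the skeletal actin *Acta1* at 29740.0 and 30240.0 CPM, each first in the GR fl/fl and then in the GR-mKO library of *ob/ob* mice. *Actc1* was thus far below *Acta1* in both. The log2 fold change of *Acta1* was 0.024.

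The other fetal and stress genes of the sarcomere were mixed. Of 18 measured, 3 were called higher and 0 lower, with a median of 0.061. *Myl4*, an embryonic myosin light chain, was at 6.43 CPM in ob/ob GR fl/fl and 13.6 CPM in ob/ob GR-mKO mice, against 4.53 CPM in lean GR fl/fl and 9.58 CPM in lean GR-mKO mice. *Tnnt2*, cardiac troponin T, was at 1.2 and 2.44 CPM in *ob/ob* mice. Their log2 fold changes were 1.08 and 1.02. *Csrp3* and *Ankrd2*, stretch-responsive proteins of the sarcomere, were at -0.92 and -0.91. *Myh3*, embryonic myosin heavy chain, had 142 counts in *ob/ob* GR fl/fl and was listed at 0 in *ob/ob* GR-mKO mice, whereas in lean mice it was at 1.06 and 3.88 CPM; it was outside the genes compared.

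Genes of slow fibers were higher in *ob/ob* GR-mKO mice. Of 9, 8 had a higher level, all with counting intervals above no change, and 1 was called, with a median log2 fold change of 0.50, and of 0.43 in lean mice. *Atp2a2*, which encodes the slow and cardiac calcium pump SERCA2, was at 152 CPM in ob/ob GR fl/fl and 331 CPM in ob/ob GR-mKO mice, against 82.6 CPM in lean GR fl/fl and 135 CPM in lean GR-mKO mice. It was higher with GR-mKO in both backgrounds, and the log2 fold changes were 1.12 (1.06 to 1.19) and 0.71. Per kilobase, it stayed far below the fast calcium pump gene *Atp2a1*, with 83.1 against 8220.0 CPM in *ob/ob* GR-mKO mice. The slow myosin heavy chain *Myh7* was at 275 and 418 CPM (0.60), the slow troponins *Tnnt1* and *Tnni1* at 0.80 and 0.50, and the slow tropomyosin *Tpm3* at 0.81. Of the transcript words of *Myh7* and *Tpm3*, 32.4% and 36.1% recur in other genes. *Myl2*, the slow regulatory light chain, did not follow, with 199 and 197 CPM. Of 15 fast fiber genes, 10 had a higher and 5 a lower level, all with counting intervals that excluded no change. Their median was 0.13, and 0 were called. In lean mice, 6 had a higher and 9 a lower level, with a median of -0.042. The summed level of the 15 genes went from 133726 to 148417 CPM in *ob/ob* and from 129485 to 126982 CPM in lean mice. *Myh4*, the type IIb myosin heavy chain, was at 29006 CPM in ob/ob GR fl/fl and 37872 CPM in ob/ob GR-mKO mice, against 23320.0 CPM in lean GR fl/fl and 20868 CPM in lean GR-mKO mice, and *Mylk2*, the kinase of fast myosin light chains, was the lowest at -0.46.

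Genes of the neuromuscular junction and of the response to denervation formed another group with higher members. *Chrna1* and *Chrnd* encode the alpha and delta subunits of the muscle acetylcholine receptor. *Chrna1* (ENSMUSG00000027107.3, chromosome 2 of GRCm38 from 73563215 to 73580338) was at 32.5 CPM in ob/ob GR fl/fl and 74.3 CPM in ob/ob GR-mKO mice, against 18.4 CPM in lean GR fl/fl and 44.0 CPM in lean GR-mKO mice, and *Chrnd* at 3.79 CPM in ob/ob GR fl/fl and 9.91 CPM in ob/ob GR-mKO mice, against 2.37 CPM in lean GR fl/fl and 4.18 CPM in lean GR-mKO mice. Within each background, the GR-mKO library was the higher one, and the log2 fold changes in *ob/ob* mice were 1.19 (1.06 to 1.33) and 1.39 (1.02 to 1.79). They were the 2 called members of 16 measured endplate genes, whose median was 0.14, against 0.39 in lean mice. *Ache*, acetylcholinesterase, was at 37.0 and 67.3 CPM (0.86), *Chrne*, the adult epsilon subunit, at 0.49, *Musk*, the receptor kinase of the endplate, at -0.42, and its adaptor *Dok7* at -0.54. *Prima1*, the membrane anchor of acetylcholinesterase, is not on this list and was among the largest differences downward, as given above. *Chrng*, the fetal gamma subunit, had 9 and 32 counts and was too low to compare.

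*Myog*, a myogenic transcription factor that denervation induces, was at 7.52 CPM in ob/ob GR fl/fl and 21.1 CPM in ob/ob GR-mKO mice, against 6.17 CPM in lean GR fl/fl and 13.6 CPM in lean GR-mKO mice. *Sln*, sarcolipin, an inhibitor of calcium pumps, was at 1.15 CPM in ob/ob GR fl/fl and 7.89 CPM in ob/ob GR-mKO mice, against 0.674 CPM in lean GR fl/fl and 2.66 CPM in lean GR-mKO mice. *Mymk*, the fusogen myomaker, went from 1.62 to 5.25 CPM in *ob/ob* mice. All 3 were called higher, with log2 fold changes of 1.49 (1.22 to 1.76), 2.78 (2.16 to 3.46), and 1.70 (1.13 to 2.29). *Fgfbp1*, a carrier of fibroblast growth factors, was called lower at -1.26. Of the 19 measured genes of the list, 14 had a higher level, among them *Myod1* (0.93), *Gadd45a* (0.85), *Ncam1* (0.82), and *Runx1* (0.73), and the median was 0.31. The satellite cell genes *Pax7* and *Myf5* were at -0.26 and -0.28, with counting intervals that included no change. *Rrad*, a small GTPase that inhibits calcium channels, was at 5.20 CPM in ob/ob GR fl/fl and 16.1 CPM in ob/ob GR-mKO mice, against 2.99 CPM in lean GR fl/fl and 12.3 CPM in lean GR-mKO mice. It was called higher in *ob/ob* (log2 fold change, 1.63) and in lean mice (2.04).

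Myogenic factors bind E-boxes, and the core CAGCTG, the same on both strands, was searched for in the same promoter windows. It was found for 1833 of 10083 measured genes (18.2%), 34 of 153 called higher (22.2%), 45 of 205 called lower (22%), 5 of 11 endplate genes (45.5%), and 7 of 18 genes called higher in both backgrounds (38.9%), and in 16.3% of all windows in the table. A gene was counted when any of its windows held the core, and the sets differed in windows per gene. The 10083 genes had 12863 windows, the 11 endplate genes 19, and the 18 genes called higher in both backgrounds 29. More windows per gene raise such a share, and the share of all windows is per window. No test was made of these shares. The bases before the start of *Chrna1* are shown because it was called higher in both backgrounds and held 2 such cores, which begin 92 and 44 bases before the start (chr2:73580339-73580588, minus strand, cores in capitals).
Chrna1: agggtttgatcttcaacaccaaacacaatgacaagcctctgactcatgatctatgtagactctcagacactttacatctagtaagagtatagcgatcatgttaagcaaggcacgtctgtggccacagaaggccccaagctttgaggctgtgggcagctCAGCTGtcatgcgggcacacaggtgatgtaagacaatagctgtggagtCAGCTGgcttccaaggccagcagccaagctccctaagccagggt

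The 15 largest log2 fold changes upward also held genes of none of these groups. *Fsd1l* went from 2.37 to 25.9 CPM in *ob/ob* mice (3.45) and was listed at 0 in lean GR fl/fl and at 22.9 CPM in lean GR-mKO mice. *Cyfip2*, a regulator of actin assembly, was at 2.60 CPM in ob/ob GR fl/fl and 22.8 CPM in ob/ob GR-mKO mice, against 3.44 CPM in lean GR fl/fl and 8.81 CPM in lean GR-mKO mice. *AW551984* was at 2.70 CPM in ob/ob GR fl/fl and 23.8 CPM in ob/ob GR-mKO mice, against 1.84 CPM in lean GR fl/fl and 4.93 CPM in lean GR-mKO mice. *Sytl2*, a Rab27 effector, was at 5.01 CPM in ob/ob GR fl/fl and 27.9 CPM in ob/ob GR-mKO mice, against 5.83 CPM in lean GR fl/fl and 18.7 CPM in lean GR-mKO mice. These 3 were called higher in both backgrounds. *Igfn1*, a sarcomeric protein, was at 4.96 CPM in ob/ob GR fl/fl and 35.4 CPM in ob/ob GR-mKO mice, against 4.31 CPM in lean GR fl/fl and 1.97 CPM in lean GR-mKO mice, and so was called higher in *ob/ob* and lower in lean mice. *Cda* (2.81), cytidine deaminase, *Nfxl1* (2.67), *Dixdc1* (2.49), *Prrg1* (2.38), *Uvssa* (2.30), and *Shisal1* (2.25) all had less than 1.5 CPM in the *ob/ob* GR fl/fl library. *Galnt2l* (2.49) shares 99.3% of its transcript words with other genes, mainly *Galnt2*, which was itself called lower (-1.03, in CPM only), so both are uncertain.

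Of the abundant genes called higher, *Prkag3*, the gamma3 subunit of AMP-activated protein kinase, was at 129 CPM in ob/ob GR fl/fl and 267 CPM in ob/ob GR-mKO mice, against 155 CPM in lean GR fl/fl and 203 CPM in lean GR-mKO mice. *Mical2*, an oxidase of actin, was at 77.5 CPM in ob/ob GR fl/fl and 179 CPM in ob/ob GR-mKO mice, and *Pcp4l1*, a calmodulin-binding protein, at 49.9 CPM in ob/ob GR fl/fl and 111 CPM in ob/ob GR-mKO mice. Each was higher with GR-mKO in lean mice as well without a call, at log2 fold changes of 0.39, 0.91, and 0.69. *Gstp2* (1.32) shares 69.6% of its transcript words with other genes, mainly *Gstp1*, which was at 0.22. *Ak4*, a mitochondrial adenylate kinase, was called higher in both backgrounds (1.87 and 2.87), and *Pak1*, a kinase of cytoskeletal signaling, in *ob/ob* mice (2.05; lean, 0.93).

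Genes of other tissues were among those called higher. *Ighm*, the heavy chain of IgM, was at 24.3 CPM in ob/ob GR fl/fl and 108 CPM in ob/ob GR-mKO mice, against 61.7 CPM in lean GR fl/fl and 87.3 CPM in lean GR-mKO mice. *Alb*, albumin, was at 4.63 CPM in ob/ob GR fl/fl and 21.5 CPM in ob/ob GR-mKO mice, against 4.63 CPM in lean GR fl/fl and 11.1 CPM in lean GR-mKO mice. Of 7 measured genes on a list of hepatocyte genes, chosen after the data were seen, 4 were called higher, *Alb*, *Ahsg*, *Hpn*, and *Mup22*, at log2 fold changes of 2.22, 2.42, 2.0, and 1.84. All transcript words of *Mup22* recur in other genes, mainly *Mup10*, so its value is uncertain. The summed level of the 15 genes of the list went from 64.7 to 87.0 CPM in *ob/ob* mice and from 150.1 to 128.3 CPM in lean mice. How RNA of other tissues came to differ between these pools was not tested.

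Collagen and connective tissue genes had lower levels with GR-mKO in *ob/ob* mice. Of 24 measured collagen genes, 21 had a lower level, all with counting intervals below no change, but only *Col1a2* was called lower and *Col24a1* higher. The median log2 fold change was -0.55 in *ob/ob* and 0.21 in lean mice. *Col1a2*, a chain of type I collagen, was at 3411 CPM in ob/ob GR fl/fl and 1565 CPM in ob/ob GR-mKO mice, against 1269 CPM in lean GR fl/fl and 1251 CPM in lean GR-mKO mice. The *ob/ob* GR fl/fl library stood above the other 3. *Col1a1*, the other chain, was arranged in the same way, with 4108 and 2277 CPM in *ob/ob* and 1279 and 1264 CPM in lean mice, and *Col3a1*, type III collagen, with 1853 and 1029 CPM in *ob/ob* and 1307 and 1602 CPM in lean mice. The basement membrane collagens *Col4a1* and *Col4a2* differed least among the abundant chains, with log2 fold changes of -0.18 and -0.24.

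Markers of tendon and of fibroblasts were lower as well. The fibroblast markers include *Col1a1* and *Col3a1*, so they overlap with the collagen genes above and are not independent of them. All 7 tendon markers had a lower level in the *ob/ob* GR-mKO library and 5 were called, with a median log2 fold change of -1.13. The membrane protein tenomodulin (*Tnmd*) was at 66.0 CPM in ob/ob GR fl/fl and 28.4 CPM in ob/ob GR-mKO mice, against 35.9 CPM in lean GR fl/fl and 29.6 CPM in lean GR-mKO mice. *Fmod*, fibromodulin, was at 1015 CPM in ob/ob GR fl/fl and 489.6 CPM in ob/ob GR-mKO mice, against 559 CPM in lean GR fl/fl and 437 CPM in lean GR-mKO mice. *Comp*, *Kera*, and the transcription factor *Mkx* were at -1.13, -1.13, and -1.22, whereas *Thbs4* and the tendon transcription factor *Scx* were at -0.56 and -0.33. The summed level of the 7 genes went from 1848 to 1009 CPM in *ob/ob* and from 969 to 812 CPM in lean mice. Of 8 fibroblast markers, 8 were lower and 0 called, with a median of -0.61 and a sum that went from 10061.5 to 5910.5 CPM in *ob/ob* and from 8215 to 8390.1 CPM in lean mice; *Pdgfra*, a receptor that marks these cells, was at -0.63 and *Dcn*, decorin, at -0.48. *Sparc*, a collagen-binding secreted protein, went from 1625 to 939.6 CPM. Markers of other cell types were also mostly lower, by less. Lower levels were found for 6 of 7 smooth muscle and pericyte markers (median, -0.29) and 5 of 6 satellite cell markers (-0.27). The same held for 7 of 7 Schwann cell and nerve markers (-0.19) and 4 of 5 measured erythroid markers (-0.14). Of 8 myofiber markers, 6 had a higher level, with a median of 0.054. The part of tendon, fibroblasts, and other cells in the collagen result was not tested.

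**Figure D4:**
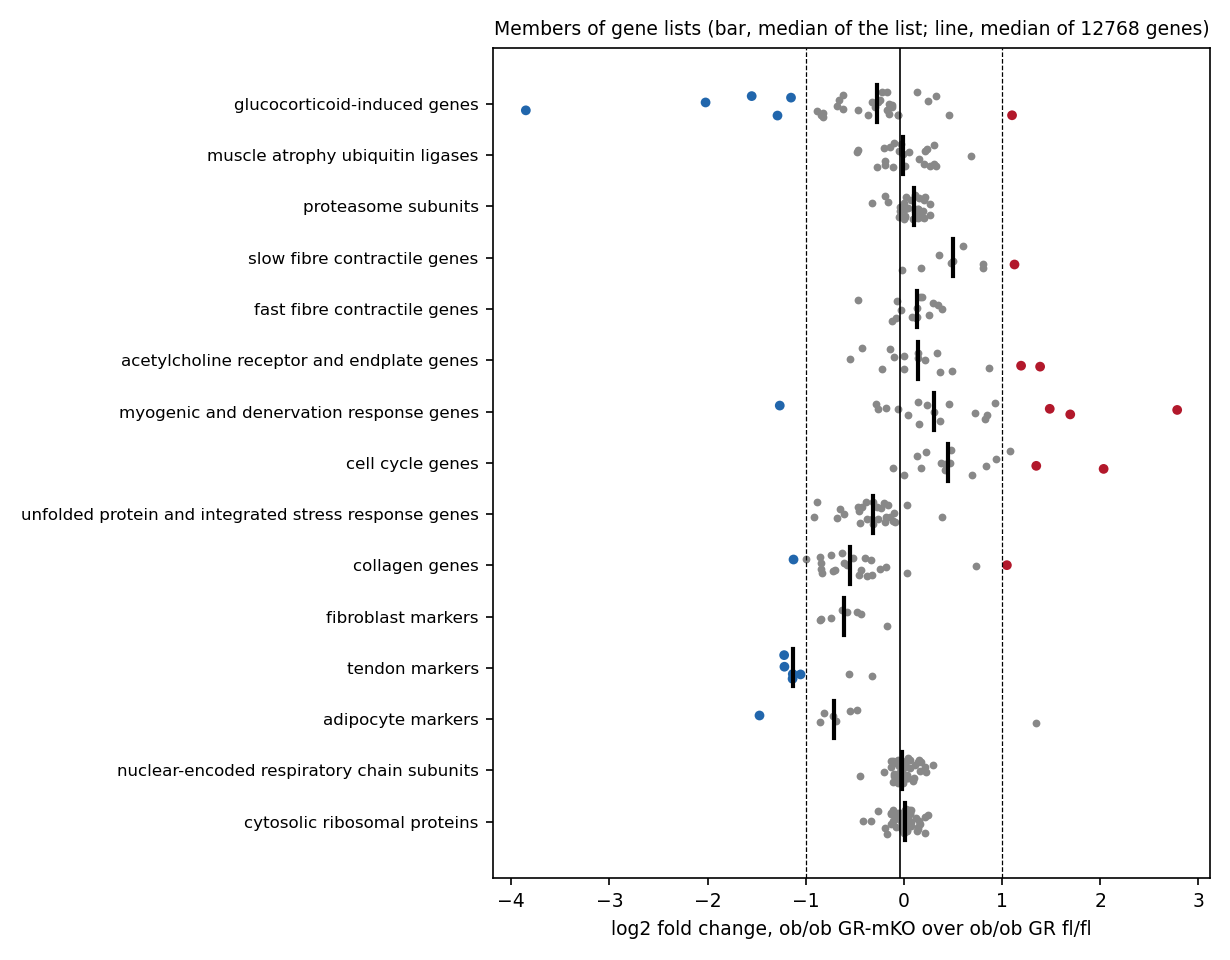
Log2 fold change of *ob/ob* GR-mKO over *ob/ob* GR fl/fl mice for the measured members of 15 gene lists, 1 point per gene, with genes called higher in red and called lower in blue. Black bars are list medians, the solid line is the median of all 12768 genes (-0.040), and dashed lines mark 2-fold; the tendon markers have the lowest median (-1.13) and the slow fiber genes the highest (0.50) of the lists shown.

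Genes of the unfolded protein and integrated stress responses were lower by a small amount in nearly all members. Of 27, 25 had a lower level and 22 intervals lay below no change, but 0 were called. The median log2 fold change was -0.32 in *ob/ob* and 0.024 in lean mice. *Hspa5*, the main chaperone of the endoplasmic reticulum, was at 253 CPM in ob/ob GR fl/fl and 188 CPM in ob/ob GR-mKO mice, against 216 CPM in lean GR fl/fl and 219.6 CPM in lean GR-mKO mice. The *ob/ob* GR-mKO library was the lowest of the 4. *Creld2* (-0.88), *Eif2ak3* (-0.68), the stress kinase PERK, and *Trib3* (-0.92) were the lowest members with at least 50 counts, and *Atf4* and *Xbp1*, transcription factors of these responses, were at -0.19 and -0.23. *Mthfd2* was the highest at 0.39. Among 27 heat shock proteins and chaperones, *Hsph1* was called lower in CPM (-1.03) but not under the 4 other scalings, and the median was -0.0042.

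Interferon and class I antigen genes were lower in 21 of 26 measured members, against 56.1% of all genes. Of the 26, 13 had counting intervals below no change, against 26.4% of all genes. The median was -0.37 in *ob/ob* and 0.067 in lean mice. *Irf9*, a transcription factor of the interferon response, was the member that was called, at 7.50 CPM in ob/ob GR fl/fl and 3.16 CPM in ob/ob GR-mKO mice, against 3.09 CPM in lean GR fl/fl and 6.77 CPM in lean GR-mKO mice. It was called lower in *ob/ob* and higher in lean GR-mKO mice. The class I genes *H2-D1* and *H2-K1* were at -0.62 and -0.59. Of 10 measured leukocyte markers, 9 had a lower level, with macrophage genes *Adgre1* at -0.93, *Csf1r* at -0.84, and *Mrc1* at -0.68, and *Itgam* was called higher at 1.76 from a level of 1.98 CPM. *Itgam* shares 74.8% of its transcript words with other genes and is uncertain. The summed leukocyte markers went from 393 to 298 CPM in *ob/ob* and from 731 to 933 CPM in lean mice. Their part in the interferon genes was not tested. All 10 endothelial markers were slightly lower, with a median of -0.16.

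Cell cycle genes were higher in 15 of 16 measured members, 5 of them with counting intervals above no change, at low levels, with a median of 0.45, or of 0.22 when members needed at least 50 counts in both libraries. *Fam83d*, a spindle protein, was at 4.24 CPM in ob/ob GR fl/fl and 17.4 CPM in ob/ob GR-mKO mice, against 4.20 CPM in lean GR fl/fl and 12.3 CPM in lean GR-mKO mice, and was called higher in both backgrounds. *Top2a*, topoisomerase of dividing cells, was called in *ob/ob* mice, from 1.38 to 3.52 CPM (0.71 to 2.02), and *Mki67* was at 0.94. Among 24 immediate early genes, 2 were called higher, *Nr4a2* (1.35) and *Myc* (1.2), both under 7 CPM, and *Atf3* was the lowest at -0.89. *Fos* was at 45.4 CPM in ob/ob GR fl/fl and 65.0 CPM in ob/ob GR-mKO mice, against 11.3 CPM in lean GR fl/fl and 49.3 CPM in lean GR-mKO mice. The 20 clock genes had 0 calls and a median of -0.16, with *Per1* the lowest (-0.68).

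Signaling systems that control muscle mass held few calls. Of 26 measured genes of the myostatin, activin, and BMP system, *Acvr1*, a BMP receptor, was called higher, at 6.93 and 17.5 CPM (1.34; lean, 0.38). *Mstn*, myostatin, was at 86.2 CPM in ob/ob GR fl/fl and 55.1 CPM in ob/ob GR-mKO mice, against 90.0 CPM in lean GR fl/fl and 52.7 CPM in lean GR-mKO mice. It was lower with GR-mKO in both backgrounds without a call. *Fst*, its inhibitor follistatin, was at -0.79. Of 15 measured genes of the insulin-like growth factor system, 0 were called; *Igf1* was at -0.53 and *Igfbp5* at 783 and 1304 CPM (0.74). Genes of energy supply and translation were nearly level, with medians of -0.017 over 46 nuclear-encoded respiratory chain subunits, -0.014 over 13 mitochondrially encoded subunits, and 0.0090 over 52 cytosolic ribosomal proteins, and 0 calls in the 3 lists.

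The lean libraries provide the same contrast in a second pair of pools. Of the 248 genes called lower in *ob/ob* mice that could be compared in lean mice, 148 (59.7%) were also lower in lean GR-mKO mice, against 41.8% of all 12412 genes that could be compared in both. Called lower in both were 35 (14.1%), against 1.17% of all. Of the 177 called higher, 121 (68.4%) were also higher in lean mice, against 58.2% of all, and 25 (14.1%) were called higher in both, against 1.47% of all. The median log2 fold change of the genes called lower was -1.24 in *ob/ob* and -0.14 in lean mice, and that of the genes called higher was 1.32 in *ob/ob* and 0.34 in lean mice. The values in *ob/ob* mice were used to choose these genes, whereas those in lean mice were not. Among the genes called in both, the largest differences shared downward were *Arrdc2* and *Odf3l2*, followed by the potassium channel gene *Kcnf1* (-2.46 in *ob/ob* and -2.67 in lean mice), the kinase gene *Stk26* (-2.33 and -2.47), *Fkbp5*, and *Hmga2* (-2.22 and -1.92). Upward, they were *Rhno1* (2.22 and 2.13), a protein of DNA damage signaling, *Actc1*, *Sln*, *Ak4*, *Sytl2*, and *Rrad*. Genes under 10 counts in a lean library were not ranked. Among these, *Ackr2* was at -3.29 in *ob/ob* and -3.89 in lean mice, and *Cda* at 2.81 and 2.68. The calls were opposite for 23 genes. Of the genes called lower in *ob/ob* mice, 15 (6.05%) were called higher in lean mice, against 1.47% of all, and of those called higher, 8 (4.52%) were called lower in lean mice, against 1.17% of all, so that opposite calls were also above the share in all genes.

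**Figure D5:**
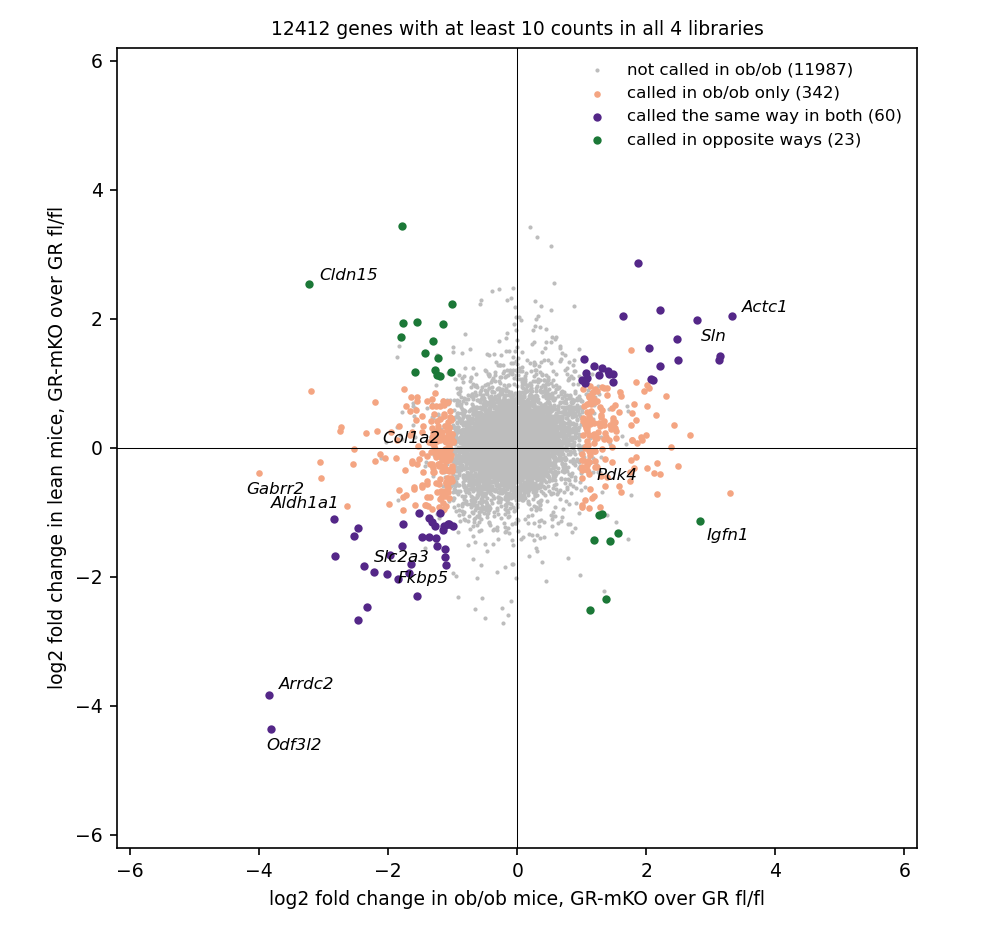
Log2 fold change of GR-mKO over GR fl/fl mice in *ob/ob* (horizontal axis) against lean mice (vertical axis) for the 12412 genes with at least 10 counts in all 4 libraries, 1 point per gene. Purple points are the 60 genes called the same way in both backgrounds, green points the 23 called in opposite directions, and light orange points those called in *ob/ob* mice only; *Arrdc2* and *Odf3l2* lie together at the lower left.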

How the data were processed

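RNA of gastrocnemius muscle was sequenced as 100-bp paired-end reads, with 1 library per group from the pooled RNA of 3 mice. The authors quantified protein-coding GENCODE transcripts with Salmon 1.2.1, imported them into R 3.5.0 with tximport (lengthScaledTPM), and resolved duplicated gene names by keeping whichever entry had the higher sum. The values they deposited are expected counts, which need not be whole numbers and were not normalized between libraries. Groups were taken from the genotype labels.

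Here, expected counts were scaled to CPM over all 22252 gene names with Python 3.11.15 and pandas 2.3.3. Genes with at least 10 counts in both libraries were compared and called at 2-fold with at least 50 counts in 1 library. Exact binomial intervals (scipy 1.17.1) used rounded counts and cover counting error only. The study's NOISeq calls were not used, since they rest on simulated technical replicates. In R 4.3.3, edgeR 4.0.16 (TMM) and DESeq2 1.42.0 gave scaling factors only, and the other settings were upper quartile scaling, library sizes that left out the top 50 genes, other minimum counts, and other folds. The scripts were tested on simulated data. Positions and the share of 31-base transcript words that recur in other genes are from GENCODE M21 on GRCm38, and promoter windows from RefSeq.

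The gene lists and the genes named were chosen with earlier results of these data known. Named were all measured members of the receptor and glucocorticoid-induced lists, up to 6 members with the largest differences and every called member of the other lists, the 15 largest called differences and the 8 most abundant called genes in each direction, the 6 largest in each direction shared with or opposite to lean mice, the 5 genes with the most counts in each direction among those near 0 in the other library, and cell type markers. *Aldh1a7*, *Amd2*, *Atf4*, *Atp2a1*, *Car14*, *Chrng*, *Col4a1*, *Col4a2*, *Galnt2*, *Gstp1*, *Kcng4*, *Mthfd2*, *Mup10*, *Myh3*, *Myl2*, *Ncam1*, *Pak1*, *Runx1*, *Tmem52*, *Trim63*, and *Xbp1* were added after their values had been seen. Genes that met the rule but are not reported here number 4.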

Additional observations from a re-analysis of the deposited data

Results flagged for a closer look

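In the *ob/ob* and the lean pair of libraries, 23 genes were called in opposite directions. The difference between the backgrounds could not be tested with 1 library per group and is given as the log2 fold change in lean minus that in *ob/ob* mice. Lower in *ob/ob* and higher in lean GR-mKO mice were 15 genes. The widest were *Cldn15* (5.76), a claudin of tight junctions, which went from 9.37 to 1.0 CPM in *ob/ob* and from 0.974 to 5.63 CPM in lean mice, and *Tdrd7* (5.22), which went from 16.4 to 4.75 CPM and from 1.60 to 17.3 CPM. They were followed by *Brsk1* (3.71), *Shroom2* (3.52), *Tcea2* (3.50), *Jade1* (3.24), *Rfc1* (3.07), *Nhsl1* (2.95), *Yeats2* (2.90), *Plekhg1* (2.75), *Zfp1* (2.61), *Fxyd3* (2.48), *Irf9* (2.38), *Scg3* (2.31), and *Nfia* (2.21). *Jade1* and *Nfia* were called lower in *ob/ob* mice in CPM only and not under 4 other scalings. Higher in *ob/ob* and lower in lean GR-mKO mice were 8 genes, *Igfn1* (-3.97), *Rnf24* (-3.72), *Zfp12* (-3.64), *Sfi1* (-2.89), *Ybx2* (-2.89), *Celf1* (-2.61), *Wdr4* (-2.34), and *Zc3h13* (-2.31). *Celf1*, an RNA-binding protein of muscle, went from 14.3 to 32.5 CPM in *ob/ob* and from 21.9 to 8.13 CPM in lean mice. The highest level of these 23 genes in the 4 libraries was 41.5 CPM, of the transcription factor *Nfia* in lean GR-mKO mice.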

How the results depend on the processing

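No paired analysis was possible because each group has 1 library, and no library could be left out. The other scalings were TMM, DESeq2 size factors, upper quartile, and library sizes that left out the top 50 genes. They raised every log2 fold change by 0.034 to 0.040 and called 209 to 216 genes higher and 238 to 240 lower. Since every value rose, none of the 190 genes called higher could lose its call. Under all 4 of these scalings, 23 genes called lower in CPM were no longer called, among them *Galnt2*, *Hsph1*, *Jade1*, *Nfia*, *Plin5*, and *Smox*. No call could change direction, because these shifts are small beside a 2-fold difference and the other settings leave the log2 fold change as it is. The numbers called moved by over 1.5 times when at least 50 counts were required in both libraries (108 higher and 156 lower), at a 3-fold difference (56 and 62), and when the whole counting interval had to lie beyond 2-fold (86 and 100). Without the minimum of 50 counts in 1 library, 258 and 348 genes were called, and with counts above 0 in both libraries 195 and 270. Of 282 list medians under other settings, 276 moved by less than 0.1 on the log2 scale. The 4 scalings shift every median by 0.034 to 0.040, so only the settings with other minimum counts could move one by 0.1. The other 6 medians came from those settings. Among them was that of the cell cycle genes, which was 0.22 over members with at least 50 counts in both libraries. Depth limits genes near 10 counts most: the interval of *Ahsg*, at 11 and 59 counts, spanned 1.48 to 3.50 on the log2 scale.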

Other observations

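Outside the genes compared, 47 genes had under 10 counts in *ob/ob* GR fl/fl and at least 50 in *ob/ob* GR-mKO mice, and 64 genes the reverse. Of these, 42 and 57 were listed at exactly 0 in the library with fewer counts. Among them were genes that most cells express, such as *Rlim*, a ubiquitin ligase of the nucleus, with 0 and 460 counts in the *ob/ob* libraries and 512 and 460 in lean GR fl/fl and GR-mKO mice, *Morc3* with 0 and 311 against 269 and 277, and *Ep400*, a chromatin remodeler, with 376 and 0 against 544 and 413. *Slc25a51*, the mitochondrial NAD carrier, was listed at 0 and 1139 in the *ob/ob* libraries and at 994 and 392 in the lean libraries. *Mier3* had 0 and 275, *Bahcc1* 0 and 257, *Cd2bp2* 410 and 0, and the histone demethylase *Kdm3a* 329 and 0 counts in the *ob/ob* libraries, in the same order. For 15 of the 111 genes, over 50% of the transcript words recur in other genes. No fold change is reported for the 111 genes.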
